A study of Mus musculus with 12 samples.

Results

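E11.5 is the day in mouse development when the maxillary prominence, the paired swelling that forms the upper jaw, meets the nasal prominences to build the lip. Bulk RNA-seq of this tissue was compared between the 3 libraries of E11.5 and the mean of the flanking stages, E10.5 and E12.5, with 3 libraries each. These were 9 of the 12 libraries of the series, and the 3 of E14.5 entered the estimate of the spread, the values given for E14.5 and the correlations with Lef1. All animals were wild type C57BL/6 with no treatment other than age, and each library held RNA of intact prominences, epithelium, mesenchyme, vessels and nerves together. The labels mention 7 littermates as the tissue source without tying them to a library, and do not place the replicates in separate litters. The p-values therefore rest on library-to-library spread, which may be technical.

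In every gene that passed a filter on low counts (18365), E11.5 was set against the midpoint of its neighbours on the log scale. That contrast also picks genes whose course only bends at E11.5, so each step was tested too. A gene is called a peak here where E11.5 was higher than E10.5 and higher than E12.5, each at an adjusted p under 0.05 (edgeR quasi-likelihood test, Benjamini-Hochberg over all genes), and a trough where it was lower than both.

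As background, the lip forms when surface ectoderm of the prominences touches, adheres and is removed so that the mesenchyme below becomes continuous. Canonical Wnt ligands bind Frizzled receptors with Lrp5 or Lrp6, which stabilises beta-catenin. Beta-catenin then joins the TCF/LEF factors on DNA and switches on targets, many of which restrain the pathway in turn. Wnt9b and Wnt3 are ectodermal ligands, and loss of Wnt9b or of the receptor Lrp6 causes cleft lip in mice. Hedgehog, BMP, FGF and retinoic acid signals act beside Wnt in patterning the facial mesenchyme.

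Depth was even, with 30435535 to 32100104 counts in genes per library at E11.5, 31758048 to 31986431 at E10.5 and 30332754 to 31308813 at E12.5. The share of aligned reads that fell outside annotated genes was uneven. It was 2.16%, 2.30% and 2.42% in E11.5 replicates 1, 2 and 3, 2.67%, 1.92% and 4.88% in those of E10.5, and 5.03% to 5.43% at E12.5. No E12.5 library had a share like those of E11.5, so stage and share cannot be told apart on that side. With the log2 share as a covariate, 408 genes were higher, 423 lower, 123 were peaks and 155 troughs, and 115 and 136 of these were peaks and troughs without it. For most calls named below that ended with this covariate, the smaller step with the covariate (log2) and the adjusted p of that step are given. Others have at most a count for their list, so a call without these values was not always kept.

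In the contrast against the flanking mean, 2026 genes were higher at E11.5 (11.0% of those tested) and 2615 were lower (14.2%). Peaks numbered 512 (2.79%) and troughs 788 (4.29%). Counts for gene lists below stand beside these shares of all genes tested. Without 1 of the E11.5 libraries (replicate 1, 2 or 3) the contrast gave 1115, 1164 or 1213 higher genes and 1406, 1485 or 1536 lower ones. The median peak lay 0.56 above the nearer flank on the log2 scale, and the median trough 0.93 below it (log2 step -0.93). E11.5 stood at least 2-fold above each flank in 144 peaks and at least 4-fold in 48, and at least 2-fold below each flank in 364 troughs and at least 4-fold in 114. All E11.5 libraries lay above all flanking libraries in 486 of the peaks, and below them in 691 of the troughs. Noncoding genes were 10% of the peaks and 12.9% of the troughs, beside 16.7% of all genes tested. In 422 of the peaks E11.5 had the highest mean of the 4 stages, and in 733 of the troughs the lowest, by any margin. E11.5 was not tested against E14.5, and how near the 2 means lay differed by gene. Among troughs, Tlx2 averaged 0.414 CPM at E11.5 and 0.96 at E14.5, while Hhip averaged 2.26 and 24.6. A further 1514 higher and 1827 lower genes passed the contrast with neither shape. Among them, 473 and 337 had an E11.5 mean between its neighbours.

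**Figure D1:**
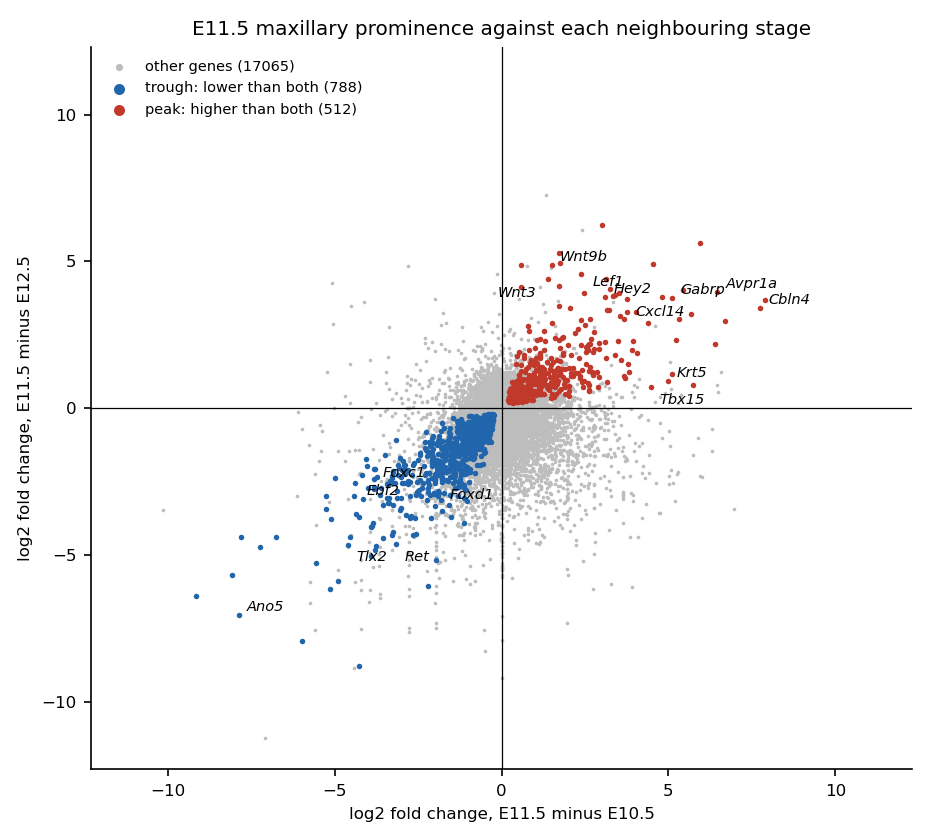
Each point is a tested gene, placed by its log2 fold change of E11.5 against E10.5 (horizontal) and of E11.5 against E12.5 (vertical). The 512 peaks fill the upper right and the 788 troughs the lower left; both axes share the E11.5 libraries, so the points spread along the diagonal by construction.

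Wnt ligand genes were high at E11.5. Of 16 tested, 7 were peaks (43.8%, beside 2.79% of all genes) and none was a trough: Wnt3, Wnt5a, Wnt6, Wnt7a, Wnt7b, Wnt9b and Wnt10b. Their summed level was 516 to 588 CPM (counts scaled to library size) in the E11.5 libraries, 156 to 233 CPM at E10.5 and 178 to 252 CPM at E12.5. The median contrast of the 16 ligands was 0.94 on the log2 scale, beside -0.015 over all genes tested. Wnt9b measured 76.4, 63.2 and 73.5 CPM at E11.5, 30.5, 20.6 and 24.0 CPM at E10.5 and 1.53, 1.92 and 3.83 CPM at E12.5. The ectodermal ligand was thus present at E10.5, higher at E11.5 (log2 fold change 1.5 ± 0.24 SE, adjusted p = 0.000534) and back to 2.43 CPM on average a day later (E11.5 above E12.5 by 4.86 ± 0.29, adjusted p = 2.39e-07). Wnt3, its neighbour on chromosome 11 (103774150 to 103817957, mm10), followed the same course: 31.9, 28 and 32.4 CPM at E11.5 against 14.7, 10.5 and 10.2 at E10.5 and 0.842, 1.47 and 2.00 at E12.5. No library of either gene at E11.5 overlapped a flanking one. The genes between Wnt9b and the next peak on its other side, Rprml, were no peaks: Gosr2, a Golgi transport protein, averaged 117 CPM at E11.5, 114 at E10.5 and 95.5 at E12.5.

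Other Wnt ligands came up from low levels and went back. Wnt7b, an epithelial ligand, measured 98.4, 85.8 and 81.1 CPM at E11.5 against 15.6, 12.1 and 7.66 at E10.5 and 11.8, 21.9 and 23.5 at E12.5. Wnt10b, a ligand of early tooth epithelium, measured 14.4, 16.2 and 12.2 CPM at E11.5 and at most 3.77 at E10.5 and 4.33 at E12.5. Neither gene overlapped its flanks, yet both calls ended with the share outside genes as a covariate (smaller steps 1.56 and 1.61, adjusted p = 0.0572 and 0.0634), as did that of Wnt7a (0.93, adjusted p = 0.648). Wnt5a, which signals mostly without beta-catenin, had 267, 304 and 233 CPM at E11.5, while E10.5 had 101, 59.9 and 62.8 and E12.5 had 72.2, 77.6 and 82.8. Its step was 1.85 ± 0.17 from E10.5 (adjusted p = 5.7e-06) and 1.79 ± 0.17 against E12.5 (adjusted p = 6.84e-06). Wnt5a, Wnt9b and Wnt3, the 3 ligands that stayed peaks with the covariate, also passed whichever single library was left out. Not every ligand peaked at E11.5: Wnt11 averaged 3.93, 12.3 and 19.9 CPM over the 3 stages in order, and Wnt16 was 0.289 CPM at E11.5 and 2.33 at E12.5 (adjusted p = 2.09e-05).

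The receptor side moved both ways. Of 24 genes for receptors, R-spondins and ligand export, 2 were peaks (8.33%) and 4 troughs (16.7%), beside 2.79% and 4.29% of all genes tested. Fzd10, a Frizzled receptor, measured 82, 93.7 and 75.1 CPM at E11.5, 24.1, 30.0 and 21.5 at E10.5 and 12.4, 18.0 and 20.2 at E12.5, with no overlap and both steps kept with the covariate. Lgr6, an R-spondin receptor, averaged 14.3 ± 3.85 CPM (SD, n = 3) at E11.5 against 3.37 ± 0.94 and 6.74 ± 0.713, and its call ended with the covariate, where the smaller step went from 1.08 to 1.55 (adjusted p = 0.0541). The Frizzled troughs were Fzd4, Fzd5, Fzd8 and Fzd9. Fzd5 was 3.38, 2.14 and 2.92 CPM at E11.5 and 5.21 to 9.28 CPM in the 6 flanking libraries, below all of them. With the covariate 2 of these troughs remained, and Fzd5 (-0.74, adjusted p = 0.274) and Fzd4 (-0.38, adjusted p = 0.508) did not pass. Fzd4 did not pass without E12.5 replicate 1 either. Lrp6, the co-receptor whose loss gives cleft lip, averaged 161, 161 and 163 CPM over the 3 stages (adjusted p = 1 and 0.913), with the E11.5 mean within 0.02 of each flank on the log2 scale.

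Feedback targets of canonical Wnt signalling held the largest share of peaks among the pathway lists. Of 15 tested, 8 were peaks (Lef1, Axin2, Nkd1, Nkd2, Apcdd1, Sp5, Dkk1 and Tnfrsf19), 12 were higher in the contrast and none was lower, with a median contrast of 1.54. Their summed level was 1280 to 1350 CPM at E11.5, 509 to 648 CPM at E10.5 and 424 to 585 CPM at E12.5. Peaks in this list numbered 7 with the covariate and 7 to 10 over the other settings. Lef1, the transcription factor that joins beta-catenin on DNA, measured 193, 218 and 174 CPM at E11.5 against 43.1, 29.6 and 32.2 at E10.5 and 12.9, 12.2 and 13.2 at E12.5. Every E11.5 library was thus well above every flanking one, and the steps were 2.48 ± 0.13 (adjusted p = 1.24e-07) and 3.93 ± 0.14 (adjusted p = 9.03e-09). Gm43352, a gene with an overlapping span, and Hadh, the next gene, were peaks too, and without strand the reads of Gm43352 and Lef1 cannot be told apart. Axin2, a scaffold that helps destroy beta-catenin, had 160, 165 and 157 CPM at E11.5 against 95.4, 77.1 and 66.3 and 32.7, 39.2 and 43.8.

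Secreted and membrane-bound antagonists among these targets had like courses. Dkk1, which blocks the Lrp co-receptors, measured 46.9, 53.9 and 45.2 CPM at E11.5, 13.5, 6.21 and 8.59 at E10.5 and 6.45, 7.15 and 4.79 at E12.5. Apcdd1, an inhibitor in the cell membrane, had 365, 385 and 336 CPM at E11.5 against 80.4, 45.9 and 41.9 and 48.7, 70.0 and 92.7. Nkd1, which binds Dishevelled, had 133, 138 and 126 CPM against 47.9, 37.8 and 26.0 and 19.5, 24.8 and 29.6. In none of these genes did an E11.5 library overlap a flanking one. Sp5, a zinc finger repressor induced by Wnt, was a peak at a lower level, 7.55, 6.11 and 7.79 CPM at E11.5 against 1.89 to 1.97 at E10.5 and 2.18 to 3.6 at E12.5. Members that were no peaks included Ccnd1, a cyclin, at 208, 162 and 168 CPM over the 3 stages, and Rnf43, a ligase that removes Frizzled, at 7.82, 12.5 and 17.4 CPM. Dkk4 was 8.51 CPM at E11.5, higher than the 0.497 CPM of E12.5 (adjusted p = 0.000199) but not than the 3.81 CPM of E10.5 (adjusted p = 0.115).

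**Figure D2:**
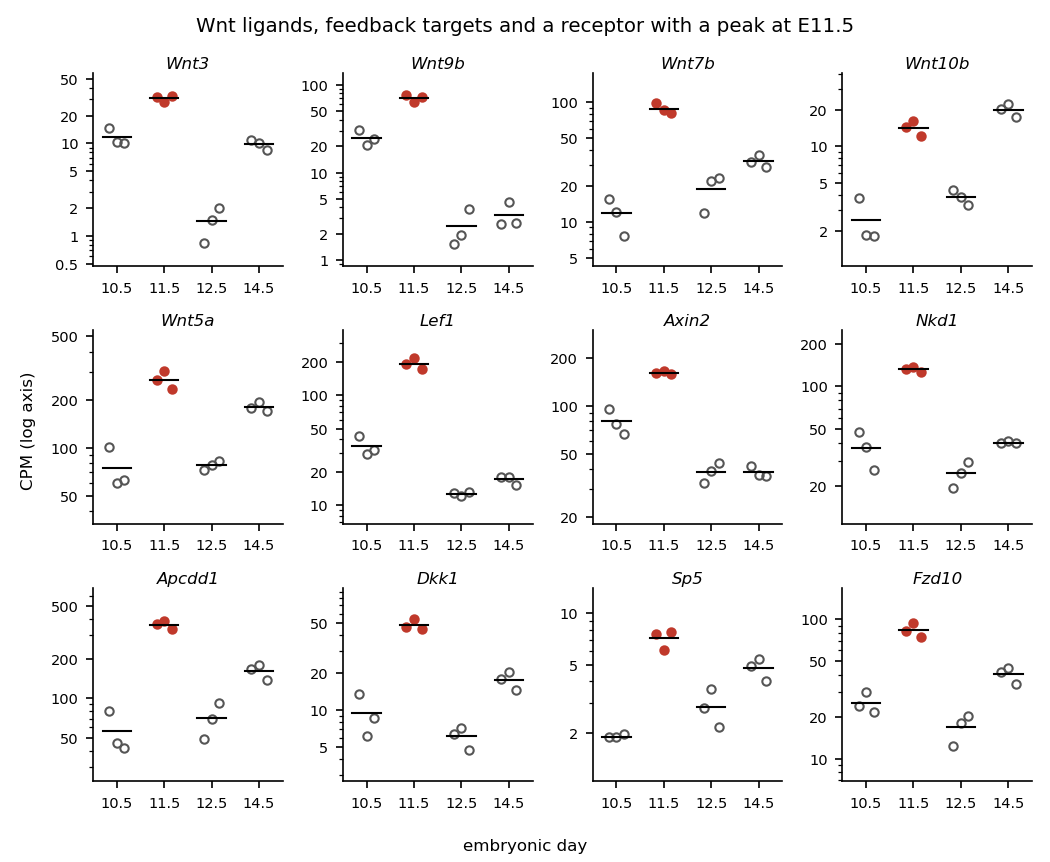
CPM (log axis) of 12 Wnt pathway genes in each library by embryonic day; points are libraries, filled at E11.5, and bars are means of 3. In every panel the 3 E11.5 libraries lie above all E10.5 and E12.5 libraries, and mean levels at E14.5 are 3.29 CPM for Wnt9b and 17.3 for Lef1 but 181 for Wnt5a, 20.1 for Wnt10b and 161 for Apcdd1.

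Promoters of these targets are shown because the pathway acts through a short TCF/LEF core, CTTTGA or CTTTGT, searched on both strands in the 250 bases before each RefSeq start (GRCm38.p6). The search matched 12709 of 18342 tested genes that have a symbol, with 16205 promoters, of which 21.9% held the core. It was in 19.4% of 504 promoters of peaks, 23.5% of 682 promoters of troughs and 4 of 11 promoters of the feedback targets that peaked (36.4%). None of the 5 promoters of peaking Wnt ligands held it. In the upstream stretches below, each core is in capitals, TCAAAG and ACAAAG being the same core read from the other strand. Sp5 held 4 and Dkk1 3, and of the 4 Lef1 starts only the one furthest inside the gene held any, also 3. Another stretch inside Lef1 (131112541 to 131112790) held none. The Axin2 stretch, with a peak in its RNA, held none.
Sp5, chr2:70474673-70474922, plus strand: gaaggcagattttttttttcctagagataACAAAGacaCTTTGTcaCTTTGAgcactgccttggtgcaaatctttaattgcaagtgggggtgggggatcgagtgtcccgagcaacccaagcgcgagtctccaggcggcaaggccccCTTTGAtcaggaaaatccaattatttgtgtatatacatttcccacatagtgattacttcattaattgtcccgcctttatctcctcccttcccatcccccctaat
Dkk1, chr19:30549497-30549746, minus strand: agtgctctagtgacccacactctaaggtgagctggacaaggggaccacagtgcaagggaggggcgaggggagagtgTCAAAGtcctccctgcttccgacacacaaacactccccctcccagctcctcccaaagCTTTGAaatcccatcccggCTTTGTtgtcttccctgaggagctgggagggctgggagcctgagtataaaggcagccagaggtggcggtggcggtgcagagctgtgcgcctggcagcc
Lef1 internal start, chr3:131156044-131156293, plus strand: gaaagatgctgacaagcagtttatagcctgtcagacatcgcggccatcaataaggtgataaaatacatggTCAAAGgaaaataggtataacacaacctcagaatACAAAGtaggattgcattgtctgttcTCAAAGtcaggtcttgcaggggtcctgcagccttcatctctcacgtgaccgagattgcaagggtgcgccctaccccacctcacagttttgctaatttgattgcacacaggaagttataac
Axin2, chr11:108920099-108920348, plus strand: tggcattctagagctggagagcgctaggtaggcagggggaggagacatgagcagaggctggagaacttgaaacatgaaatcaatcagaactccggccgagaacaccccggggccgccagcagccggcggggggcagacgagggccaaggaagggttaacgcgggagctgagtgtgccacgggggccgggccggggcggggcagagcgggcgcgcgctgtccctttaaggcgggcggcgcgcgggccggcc
A match is a string of letters and does not show that the factor binds there.

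Wnt inhibitors outside the feedback list, secreted apart from the Kremen receptors, showed 3 peaks and 1 trough of 12. Kremen2, a receptor for Dkk proteins, averaged 25.0 CPM at E11.5 against 11.3 and 12.7 at the flanks (log2 steps 1.14 ± 0.16 and 0.97 ± 0.16). Kremen1 and Wif1 were peaks by smaller steps (0.36 and 0.83), and both calls ended with the covariate (0.52, adjusted p = 0.191, and 0.24, adjusted p = 0.863). The Kremen1 call also ended when any E11.5 library or E12.5 replicate 1 was left out, and the Wif1 call without replicates 1 or 2 of E11.5 and 1 or 3 of E12.5. Sfrp1, a soluble Frizzled decoy, was the trough, at 83.1, 77.5 and 82.3 CPM against 112, 114 and 123 at E10.5 and 195, 201 and 243 at E12.5, below all flanking libraries. Sfrp2, its relative, climbed through the 3 stages from 60.3 to 99.7 and 485 CPM.

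BMP genes had 5 peaks (20.8%) and 2 troughs (8.33%) of 24, beside 2.79% and 4.29% of all genes tested. Their median contrast was 0.25. With the covariate 3 members of this list were peaks and 2 were troughs. Bmp4, a ligand of facial ectoderm and mesenchyme, measured 53.7, 58.3 and 55.1 CPM at E11.5 against 36.5, 22.4 and 32.0 at E10.5 and 27.5, 26.4 and 30.5 at E12.5. Grem1, a secreted BMP antagonist, measured 20, 18.6 and 18.6 CPM against at most 3.63 at E10.5 and 5.83 at E12.5. Ligand and antagonist both had E11.5 libraries above all flanking ones, and both passed with the covariate. Id2, Id3 and Smad7, genes that respond to BMP, were peaks by at most 0.84 on the log2 scale at either step, and the Id2 call ended without E10.5 replicate 3, without any one E11.5 library and with the covariate (0.44, adjusted p = 0.19). The troughs were Bmpr1b, a type I receptor (14.8 CPM against 32.1 and 21.3), and Chrdl1, a BMP-binding protein (2.63, 2.59 and 2.41 CPM against 5.59 to 6.38 and 15.6 to 16.7). Id1, another response gene, averaged 175 CPM at E11.5 against 148 and 130 and did not pass at the first step (adjusted p = 0.247).

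Of 20 hedgehog genes, 8 were lower in the contrast and 3 higher, beside 14.2% and 11.0% of all genes tested, with a median contrast of -0.42. Troughs numbered 4 (20%) and peaks 1 (5%), beside 4.29% and 2.79%, and 3 of the troughs remained with the covariate. The summed level was 1010 to 1090 CPM at E11.5, 864 to 1090 at E10.5 and 1190 to 1610 at E12.5. Shh, the ligand, measured 4.38, 2.52 and 3.03 CPM at E11.5, 6.49, 4.99 and 5.82 at E10.5 and 15.3, 17.3 and 13.4 at E12.5. The E11.5 libraries lay below all flanking ones, but the step from E10.5 was small (-0.80 ± 0.23, adjusted p = 0.0227) and did not pass when E10.5 replicate 1 was left out, nor when either of replicates 2 and 3 of E11.5 was. Hhip, a hedgehog-binding antagonist induced by the pathway, measured 2.42, 1.86 and 2.48 CPM at E11.5 against 6.46, 6.28 and 12.9 at E10.5 and 15.6, 16.2 and 22.6 at E12.5. Foxd1, a forkhead factor downstream of hedgehog in facial mesenchyme, measured 7.80, 7.08 and 4.22 CPM at E11.5 against 20.3, 23.1 and 26.3 and 41.4, 35.7 and 64.5. Both were more than 3-fold below the nearer flank mean and kept their call with the covariate. Foxd2 was a trough too (6.97 CPM against 16.7 and 19.0), together with its neighbour Foxd2os, from which it cannot be separated without strand, and its call ended with the covariate (-0.97, adjusted p = 0.189). Ptch1, the receptor, averaged 125, 94.5 and 208 CPM, and its first step did not pass (adjusted p = 0.0514). Gli2, an activator of the pathway, was the peak, at 110, 108 and 109 CPM against 57.7 to 78.4 in the flanking libraries.

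Retinoic acid enzymes split within one family. Cyp26b1, which degrades retinoic acid, measured 114, 116 and 100 CPM at E11.5, 9.15, 8.95 and 7.34 at E10.5 and 46.2, 53.8 and 63.8 at E12.5. Cyp26a1, with the same activity, measured 10.5, 7.28 and 10.2 CPM at E11.5, below the 16.7 to 23.9 of E10.5 and the 14.2 to 18.3 of E12.5. Neither overlapped its flanks, and neither passed with the covariate, where the smaller step of Cyp26b1 went from 1.01 to 0.72 (adjusted p = 0.0807) and that of Cyp26a1 from -0.83 to -1.02 (adjusted p = 0.052). Aldh1a2, which makes retinoic acid, climbed from 6.06 to 69.8 and 143 CPM and was no peak. In all, 2 of 18 genes were peaks (11.1%) and 1 a trough (5.56%), beside 2.79% and 4.29% of all genes tested. Rarg, a receptor, was the other peak, and its call also ended (0.31, adjusted p = 0.27).

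Notch ligands and effectors also split. Hey2, a repressor of the Hes and Hey family, measured 89.8, 111 and 70.6 CPM at E11.5 against 9.60, 13.0 and 9.11 at E10.5 and 6.11, 5.99 and 7.49 at E12.5 (steps 3.10 ± 0.18 and 3.79 ± 0.19). That is a peak of more than 8-fold over each flank mean, kept with the covariate (adjusted p = 0.000109). Hey1 was a smaller peak with overlapping libraries (47.0 CPM against 20.8 and 33.8), and Heyl a trough (6.75 CPM against 32.8 and 11.7) whose call ended with the covariate (-1.08, adjusted p = 0.073). Of the 2 peaks and 4 troughs of this list, 1 and 2 remained with the covariate. The ligands Dll1 and Dll3 were troughs: Dll3 measured 0.0712, 0.276 and 0.204 CPM at E11.5 and 1.22 to 5.40 CPM in the flanking libraries. Both ligands are known from young neurons. Summed neuronal markers were 232 to 371 CPM at E11.5, 599 to 1080 at E10.5 and 188 to 517 at E12.5. A part of neurons in these troughs was not tested. None of the 4 Notch receptors passed against E10.5, and of them Notch4 alone passed against E12.5 (8.21 against 12.1 CPM, adjusted p = 0.0127).

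FGF genes were peaks and troughs in 4.17% each, beside 2.79% and 4.29% of all genes tested. TGF-beta genes held no peak, and 11.1% of them were troughs. In the FGF list Fgfr2 was the 1 peak (164 CPM against 119 and 125) and Etv5, a target of FGF signalling, the 1 trough (58.3 CPM against 76.9 and 73.9) of 24, and both calls ended with the covariate (0.55, adjusted p = 0.0527, and -0.19, adjusted p = 0.601). Single libraries decided them too, replicate 1 of E11.5 for Fgfr2, and replicate 1 of E10.5, 2 of E11.5 and 3 of E12.5 for Etv5. In the TGF-beta list Tgfb1 and Skil were troughs by steps of at most 0.93 on the log2 scale, of 18 genes, and neither was kept with the covariate (-0.27, adjusted p = 0.123, and -0.21, adjusted p = 0.381). Both calls also ended without replicate 3 of E10.5 and replicate 2 of E11.5 in turn, and that of Tgfb1 without the other E11.5 libraries.

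**Figure D3:**
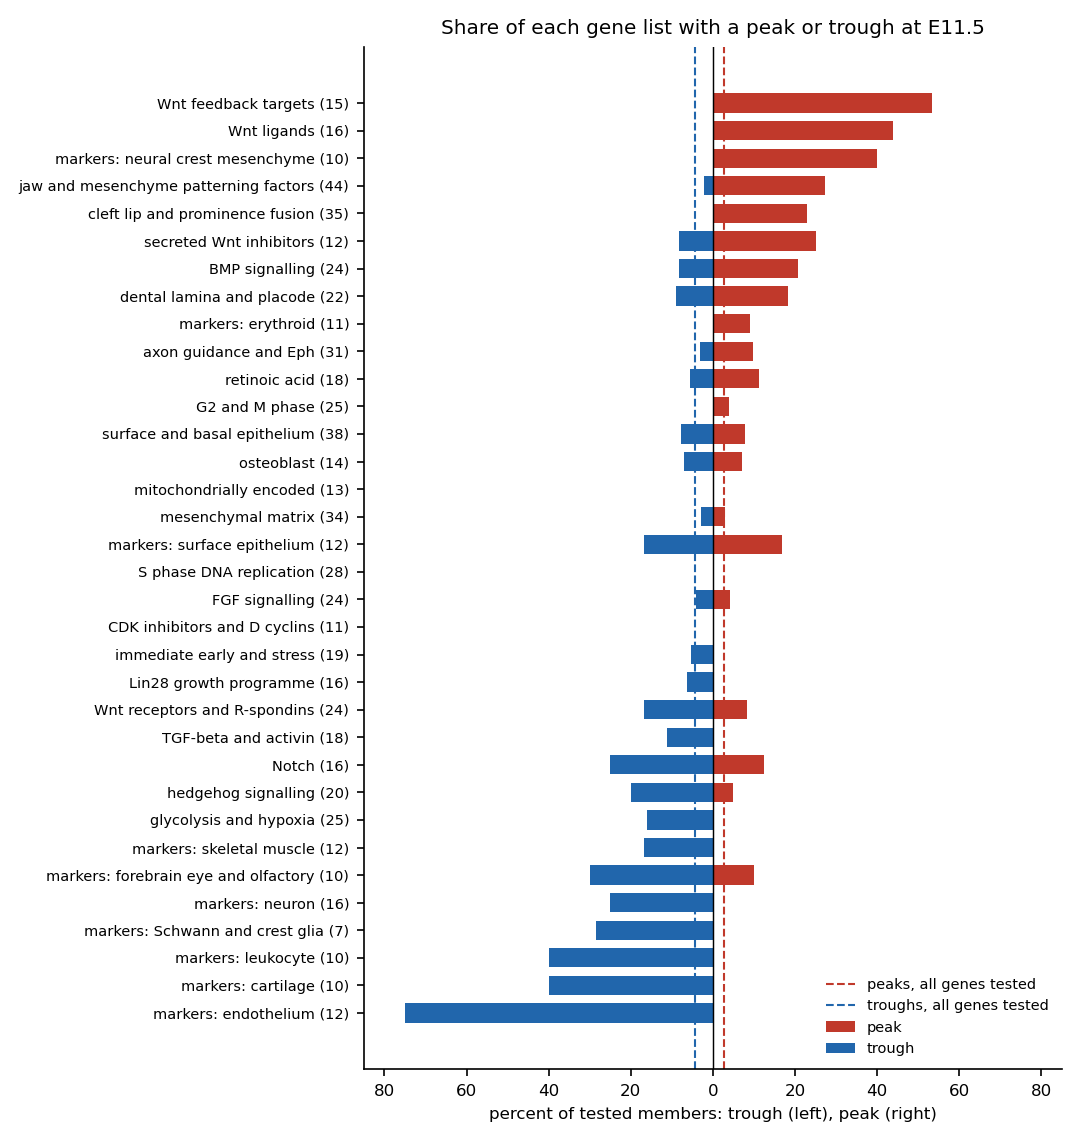
Percent of each list's tested genes that were peaks or troughs at E11.5, with dashed lines at the shares over all 18365 genes (2.79% and 4.29%). Wnt feedback targets and Wnt ligands reach furthest on the side of peaks, and endothelial markers on the side of troughs.

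Transcription factors that pattern the jaw and facial mesenchyme gave 12 peaks (27.3%) and 1 trough (2.27%) of 44, with 21 higher and 6 lower in the contrast. Over all genes tested the shares were 2.79% peaks, 4.29% troughs, 11.0% higher and 14.2% lower. Pax1, a paired-box factor, measured 65.8, 86.7 and 46.1 CPM at E11.5 against 2.06, 1.52 and 0.362 at E10.5 and 3.90, 11.4 and 5.92 at E12.5. Its E11.5 libraries varied but stayed above all flanking ones (steps 5.67 ± 0.50 and 3.22 ± 0.41), while with the covariate it did not pass (2.12, adjusted p = 0.311). Pax3, a neural crest factor, measured 75.0, 78.4 and 71.4 CPM against 33.3, 29.8 and 15.4 and 10.1, 4.43 and 15.8. Msx1, a homeobox factor needed for the palate and teeth, measured 338, 341 and 352 CPM at E11.5 against 231, 143 and 123 at E10.5 and 119, 137 and 112 at E12.5. The Pax3 and Msx1 calls also ended with the covariate (1.28 and 0.95, adjusted p = 0.0631 and 0.0855). Alx4, a frontonasal homeobox factor, measured 195, 179 and 184 CPM against 99.8 to 153 and 44.9 to 60.4, and was kept (adjusted p = 0.0181).

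The Iroquois factors Irx3, Irx5 and Irx6, which lie in 1 cluster, were peaks. Irx1, an Iroquois factor of the dental list, was neither peak nor trough, nor were the noncoding genes Gm21817 and Gm45336 within the cluster. Irx3 measured 111, 87.7 and 91.8 CPM at E11.5 against 67.7, 46.1 and 49.0 and 14.8, 16.5 and 16.2. Irx5 measured 61.5, 54.5 and 57.8 CPM against 30.6, 22.3 and 25.0 and 9.60, 12.0 and 12.1. Irx6 was nearly silent outside E11.5, at 5.06, 3.35 and 5.34 CPM against 0.0987 to 0.629 and 0.156 to 0.397. Each had all E11.5 libraries above the flanks, and with the covariate Irx5 passed and Irx6 did not (2.28, adjusted p = 0.16). They lie in that order on chromosome 8 (mm10, from 91798525 to 92680956), with Crnde, a noncoding gene that was also a peak (24.5 CPM against 13.8 and 6.17), just before Irx5. The T-box factors Tbx2, Tbx3, Tbx15 and Tbx18 were peaks as well. Tbx2 measured 296, 288 and 291 CPM against 131 to 210 and 90.6 to 98.0, and Tbx15 averaged 63.8 ± 26.4 CPM (SD, n = 3) against 2.83 ± 0.222 and 39.0 ± 6.94. The Tbx15 libraries overlapped those of E12.5. The Tbx18 libraries overlapped too, and its call ended without replicate 1 or 2 of E10.5 and without replicate 1 or 2 of E11.5. Pitx1, a maxillary and limb factor, was the trough (28.1 CPM against 43.2 and 72.4). With the covariate 5 members of this list were peaks, and 8 without E11.5 replicate 2. Alx4, Irx5 and Tbx18 were among the 5, so Irx3, Tbx2, Tbx3 and Tbx15 were not all kept.

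Genes known from cleft lip and prominence fusion included 8 peaks (22.9%, beside 2.79% of all genes tested) and no trough of 35. They were Wnt9b, Wnt3, Bmp4, Msx1 and Alx4, described above, and by smaller steps Trp63, Ctnnb1 and Fgfr2. Trp63, the master factor of stratified epithelium, measured 133, 122 and 132 CPM at E11.5 against 83.6 to 106 and 86.6 to 103. Ctnnb1, beta-catenin itself, averaged 1500 CPM at E11.5 against 1240 and 1230 (steps 0.28 and 0.29, adjusted p = 0.035 and 0.0189). With the covariate 4 members of this list were peaks, Wnt9b, Wnt3, Bmp4 and Alx4, so the Trp63 and Ctnnb1 calls ended. Grhl3, which guides the surface ectoderm, climbed at the first step (adjusted p = 0.00198) and did not pass at the second (adjusted p = 0.834). Tfap2a kept its level from E10.5 to E11.5 (36.8 and 38.0 CPM, adjusted p = 0.824) and was 11.7 CPM at E12.5. Of 22 genes of the dental lamina and placode, 4 were peaks, each already in another list, and Shh and Tbx1 were troughs. Tbx1, a T-box factor of pharyngeal tissue and teeth, measured 2.46, 2.59 and 1.60 CPM against 4.75, 4.62 and 10.6 and 16.4, 22.8 and 26.0.

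Epithelial keratins moved in opposite ways. Krt5, the keratin of basal cells, measured 127, 148 and 95.7 CPM at E11.5 against 5.66, 4.33 and 1.74 at E10.5 and 38.9, 84.4 and 72.0 at E12.5. Krt8, Krt18 and Krt19, keratins of simple epithelium, were troughs, with Krt8 at 45.7, 42.7 and 51.6 CPM against 96.5 to 107 and 65.2 to 130. Of 38 epithelial genes, 3 were peaks and 3 troughs (7.89% each, beside 2.79% and 4.29% of all genes tested). With the covariate none of them was either (Krt8 -0.93, adjusted p = 0.173), and the smaller step of Krt5 had the opposite sign (-0.24, adjusted p = 0.873). The Krt5 call also ended without replicate 1 or 2 of E11.5 and without E12.5 replicate 1. The summed level of 12 surface epithelium markers was 837 to 905 CPM at E11.5, 556 to 685 at E10.5 and 795 to 1470 at E12.5. Of 34 collagens and other matrix genes, 18 climbed at both steps, beside 3.77% of all genes tested. In the contrast 13 were higher and 4 lower, with Tnn, a tenascin, the 1 peak and Cthrc1 the 1 trough. The Tnn call ended with the covariate (1.56, adjusted p = 0.526), without replicate 2 or 3 of E11.5 and without E12.5 replicate 1.

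Genes of cell division were bent rather than peaked. Of 28 genes of DNA replication 19 were higher in the contrast and none lower, and of 25 genes of mitosis 16 were higher and none lower, beside 11.0% higher and 14.2% lower of all genes tested. The 1 peak in either list was Nusap1, a spindle protein (202 CPM against 157 and 143), and its call ended without replicate 1 or 3 of E10.5, without replicate 1 or 2 of E11.5 and with the covariate (0.3, adjusted p = 0.313). Summed levels of the replication list were 5570 to 6120 CPM at E10.5, 5020 to 5420 at E11.5 and 3440 to 3830 at E12.5. Myc, a growth regulator, was a trough (19.8 CPM against 38.8 and 33.6) whose call ended with the covariate (-0.43, adjusted p = 0.145). Of 19 immediate early and stress genes Egr1 was the 1 trough (5.26%, near the 4.29% of all genes tested) and none was a peak. The Egr1 call ended with the covariate (-0.55, adjusted p = 0.0624) and without any of 4 single libraries (replicates 1 and 3 of E10.5, replicates 2 and 3 of E11.5). Of 25 genes of glycolysis and hypoxia Pfkp, Egln3, Car9 and Adm were troughs (16%, beside 4.29% of all genes tested). With the covariate none was (adjusted p = 0.812, 0.515, 0.372 and 0.109). Pfkp and Car9 did not pass without replicate 3 of E10.5 either, nor without replicates 1 or 3 of E11.5, and Pfkp not without replicate 2.

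The genes with the largest steps on both sides were chosen by size and separation, whatever their list. Cxcl14, a chemokine of epithelium, measured 466, 554 and 341 CPM at E11.5 against 54.8, 25.5 and 20.6 at E10.5 and 31.4, 24.2 and 47.6 at E12.5 (steps 3.75 ± 0.35 and 3.72 ± 0.35). Gabrp, a subunit of the GABA-A receptor, measured 35.4, 37.5 and 34 CPM against 1.57, 0.887 and 0.625 and 1.59, 3.48 and 2.88. Gjb6, a connexin, measured 20, 21.2 and 17.6 CPM against 1.02 to 2.20 and 1.09 to 3.27. These 3 genes and Glis1, a zinc finger factor (20.7, 26.1 and 17.3 CPM against at most 3.28), kept their calls with the covariate, as did Hey2, Lef1, Dkk1 and Apcdd1.

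The other 7 of these 15 peaks did not pass with the covariate, where their smaller steps were 1.83 (Thy1) to 3.98 (Avpr1a) with adjusted p from 0.0963 (Gm14226) to 0.535 (Cbln4), though each of the 15 passed whichever single library was left out. Avpr1a, a vasopressin receptor, measured 13.7, 20.8 and 6.70 CPM at E11.5 against 0.140, 0.148 and 0.164 and 0.218, 1.68 and 0.755. Cbln4, a secreted synaptic protein, measured 9.51, 9.94 and 5.44 CPM against 0.312, 1.13 and 0.900 at E12.5, with 3 counts over the E10.5 libraries. Thy1, a surface glycoprotein, measured 12.4, 12.5 and 13.1 CPM against at most 1.5 and 2.54. In Avpr1a, Cbln4 and Pax1 replicate 2 was the highest of the E11.5 libraries and replicate 3 the lowest. This order was common: over the 512 peaks, E11.5 replicate 2 was the highest of its stage in 52.0% and replicate 3 the lowest in 48.8%, beside 34.5% and 31.4% of all genes tested. Cpxm2, Sstr1, Pax1 and Gm14226 complete the group.

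Nearly specific to E11.5 against its flanks, at 1 CPM or more and at least 8-fold above the higher flank mean, were 22 genes. Besides Avpr1a, Gabrp, Cxcl14 and Irx6 they included Gm40383, with 144 counts at E11.5, 2 at E10.5 (ratio 73.3, 95% exact interval 19.9 to 611) and 3 at E12.5 (47.5, 15.9 to 233). Gm48878 starts 679 bases past Avpr1a on the same strand and had the same order of libraries, 1.39, 2.59 and 1.05 CPM at E11.5 against at most 0.0698 and 0.183. Gm8210 rested on 1 library, at 24.0 CPM in E11.5 replicate 2 and 0.392 and 0.374 CPM in the others. Hoxd1 measured 2.21, 2.73 and 0.272 CPM at E11.5, so its lowest library overlapped E12.5. Some of these genes were high again later: mean CPM at E14.5 was 3.19 for Hoxd1, 1.47 for Gm48878, 20.3 for Gabrp and 219 for Cxcl14. With the covariate Gm48878 (4.09, adjusted p = 0.37), Gm8210 (4.61, adjusted p = 0.338) and Hoxd1 (-1.36, adjusted p = 0.842) did not pass. Nearly absent from E11.5, under 0.1 CPM there and at least 0.5 CPM in each flank, were 11 genes. Ano5, a membrane protein of muscle and bone, had no count at E11.5 and was at least 26.8-fold higher at E10.5 and 17.5-fold at E12.5 (floor of 3 counts over the stage). Foxa2, a forkhead factor of floor plate and endoderm, measured 0.142, 0 and 0.068 CPM against 0.838 to 1.15 and 1.77 to 2.57.

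Among the 12 troughs chosen by the same rule, Tlx2, a homeobox factor of crest-derived neurons, measured 0.178, 0.587 and 0.476 CPM at E11.5 against 6.46, 14.6 and 9.54 at E10.5 and 6.27, 12.2 and 13.1 at E12.5. Ret, the GDNF receptor, measured 0.427, 0.656 and 0.748 CPM against 4.71, 3.66 and 8.03 and 8.07, 17.2 and 20.6. Srrm4 and Celf3, splicing regulators of neurons, averaged 0.609 and 0.644 CPM at E11.5 against 12.6 and 6.27 at E10.5 and 7.58 and 12.9 at E12.5. All had their E11.5 libraries below every flanking one. Insm1, a factor of neural and endocrine progenitors, and Miat, a noncoding RNA, had the same shape. Ebf2, a factor of olfactory and mesenchymal cells, had the tightest values, 8.62, 6.94 and 6.02 CPM against 31.7, 48.6 and 47.2 and 48.1, 54.0 and 65.7 (steps -2.56 ± 0.18 and -2.96 ± 0.18).

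Foxc1, a forkhead factor of crest mesenchyme and vessels, measured 12.1, 10.3 and 10.9 CPM at E11.5 against 34.9, 28.8 and 64.7 at E10.5 and 46.9, 34 and 74.2 at E12.5. Its call ended with the covariate (-1.23, adjusted p = 0.108). Nrg1, a ligand of ErbB receptors, measured 1.57, 1.97 and 1.5 CPM against 4.92 to 7.36 and 5.61 to 8.58. Foxd1 and Hhip are described above. Snhg11 was the twelfth, and its call ended with the covariate (-0.12, adjusted p = 0.922) and when replicate 3 of E10.5 or replicate 2 of E11.5 was left out. Over the 788 troughs, E10.5 replicate 3 was the highest of its stage in 59.4%, beside 39.1% of all genes.

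**Figure D4:**
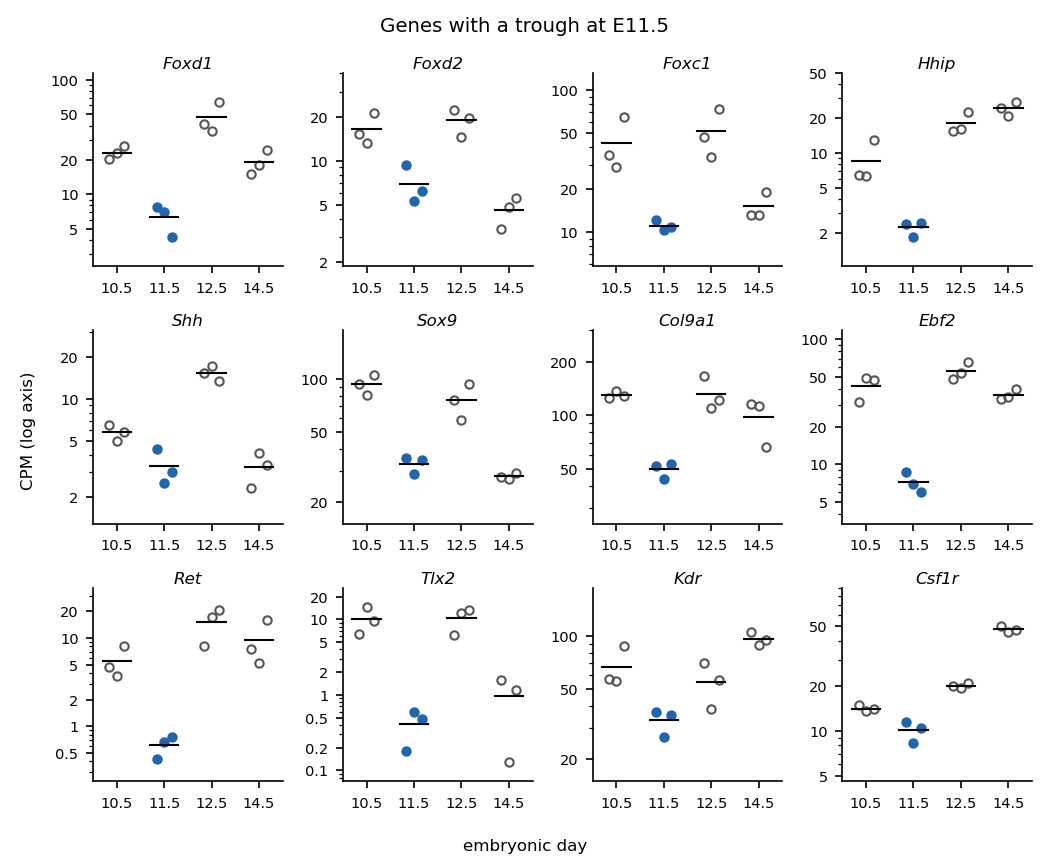
CPM (log axis) of 12 genes with a trough at E11.5 in each library by embryonic day; points are libraries, filled at E11.5, and bars are means of 3. From Foxd1 to Csf1r, the 3 E11.5 libraries lie below all E10.5 and E12.5 libraries.

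Endothelial, cartilage and leukocyte markers were low at E11.5, and in bulk RNA fewer cells of a type and less RNA per cell cannot be told apart. For the marker lists here and below, the shares over all genes tested were 4.29% troughs, 14.2% lower, 2.79% peaks and 11.0% higher. Their counts with the covariate are not given. Of 12 endothelial markers 9 were troughs, 11 were lower and none higher. Their summed levels were 190 to 230 CPM at E11.5, 277 to 424 at E10.5 and 359 to 504 at E12.5. Kdr, the main VEGF receptor, measured 36.8, 26.7 and 35.7 CPM against 57.1, 55.2 and 87.7 and 69.9, 38.5 and 56.1. Of 10 cartilage markers 4 were troughs and 9 lower, and the sums were 236 to 314 CPM against 569 to 832 and 607 to 936. Sox9, the factor that starts cartilage, measured 35.6, 29.1 and 35.0 CPM against 93.5, 81.5 and 105 and 75.6, 58.5 and 94.1. Matn1, a late cartilage gene, had no count at E11.5. Of 10 leukocyte markers 4 were troughs and 9 lower (39.1 to 44.6 CPM against 55.8 to 72.6 and 90.7 to 98.0), Csf1r of macrophages among them at 11.5, 8.25 and 10.4 CPM against 13.5 to 14.8 and 19.4 to 20.8.

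Neuronal markers had 4 troughs and 8 lower of 16, with a median contrast of -1.58. Their sum was 232 to 371 CPM at E11.5, 599 to 1080 at E10.5 and 188 to 517 at E12.5, so the ranges of E11.5 and E12.5 overlapped. The forebrain, eye and olfactory list held 3 troughs and 1 peak of 10, with Sox1 at 0 counts at E11.5 and Six6 at 1. The peak was Emx2 (29.9 CPM against 13.6 and 8.96), and its call ended with the covariate (1.03, adjusted p = 0.0962). Skeletal muscle markers summed to 31.3 to 45.7 CPM at E10.5, 29.7 to 43.4 at E11.5 and 192 to 388 at E12.5. Crest mesenchyme markers went the other way: 8 of 10 were higher and 4 were peaks (Prrx1, Twist1, Twist2 and Msx1). Their sum was 2580 to 2860 CPM at E11.5, 1290 to 1740 at E10.5 and 2200 to 2850 at E12.5. The ranges of E11.5 and E12.5 overlapped here too. Erythroid genes summed to 5380 to 6850 CPM at E11.5, above 3270 to 3920 and 3420 to 4150, with embryonic globin Hbb-y a peak. The part of these cell types and of the share outside genes in the peaks and troughs was not tested.

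**Figure D5:**
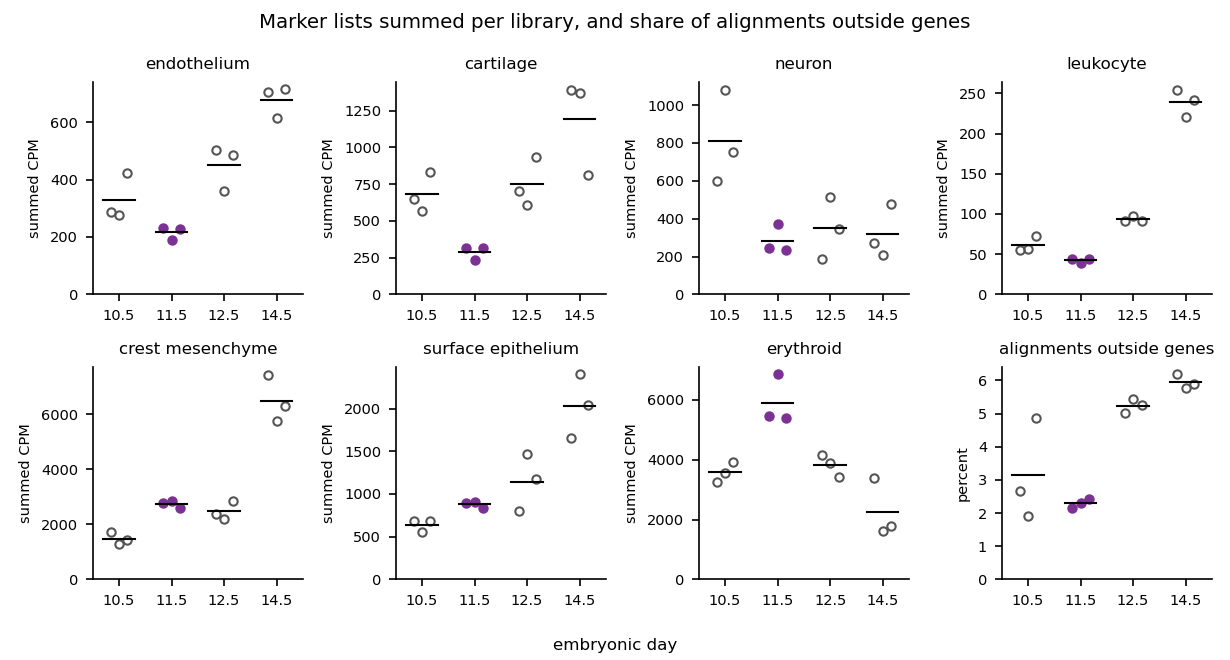
Summed CPM of 7 marker lists, and the percent of alignments outside annotated genes, in each library by embryonic day; points are libraries, filled at E11.5, and bars are means of 3. Endothelial, cartilage and leukocyte sums are lowest at E11.5, erythroid sums highest, and the share outside genes is 2.16% to 2.42% at E11.5 and 5.03% to 5.43% at E12.5.

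Among genes with a large contrast that were neither peak nor trough, Pde1a, a phosphodiesterase, measured 0.105, 0.148 and 0.230 CPM at E10.5, 12.0, 22.0 and 10.7 at E11.5 and 11, 10.4 and 9.35 at E12.5. It was thus switched on between E10.5 and E11.5 and did not pass afterwards (adjusted p = 0.0683). Gng4, a G protein subunit, and Chodl, a lectin, had that shape too (0.216 to 8.96 and 0.124 to 10.5 CPM at the first step), and the contrast of neither passed with the covariate (1.48, adjusted p = 0.247, and 3.78, adjusted p = 0.139). C130021I20Rik, a noncoding gene, had the reverse: 13.3, 22.7 and 0.792 CPM, with the fall at the second step (adjusted p = 5.69e-06). Hand2os1 went from 2 counts at E11.5 to 843 at E12.5 (ratio 426, 95% exact interval 118 to 3520), and Dbh, which makes noradrenaline, from 2 to 514 (260, 71.6 to 2150). With the covariate the contrast passed for neither (1.67, adjusted p = 0.536, and -4.33, adjusted p = 0.318). Afp, a fetal liver and yolk sac protein, had no count at E11.5, 47 counts at E10.5 and 935 at E12.5, most of them in 1 library (27.6 CPM in replicate 1), and its step from E10.5 did not pass (adjusted p = 0.158). Zic1, a hindbrain and crest factor, was 5.66, 22.4 and 1.22 CPM at E10.5 and under 0.45 CPM in each E11.5 library.

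Over all 12 libraries, the courses most like that of Lef1 by Pearson correlation of log2 CPM were those of Rai14 (r = 0.972), Sema3a, Rprml and Axin2 (each r = 0.970) and Zfhx3 (r = 0.968). Hdhd3, Twist2 and Crnde followed (r = 0.965, 0.962 and 0.960). All 8 were peaks, and the Hdhd3 call ended with the covariate (0.5, adjusted p = 0.127) and without E11.5 replicate 2. Libraries of a stage share its age, so r mostly ranks the order of the 4 stages. Rprml, which lies near Wnt9b, went from 0.221 CPM at E10.5 to 1.83 at E11.5 and 0.0199 at E12.5, where 2 counts remained. Sema3a, an axon repellent, was a peak by small steps (170 CPM against 135 and 109), with Robo1 and Robo2, receptors for Slit proteins, the other peaks of 31 axon guidance genes. The Robo2 call ended without replicate 1 or 2 of E11.5 and without replicate 1 or 2 of E12.5.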

How the data were processed

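Whole-number counts per Ensembl gene were deposited for each of the 12 libraries. Per the labels' protocols, total RNA was taken with Trizol and poly-T selected, and the library kit does not mark strand. The submitters' processing notes name STAR 2.7.3a, HTSeq 0.12.4, FastQC and mm10, without role or order; neither labels nor headers state the annotation release or the strand setting. Rows that name no gene stayed out of all fits and are 14.3% to 18.6% of a library. Symbols and positions came from GENCODE M21, which matched 53706 of 53801 identifiers.

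Genes were tested with edgeR 4.0.16 in R 4.3.3 (quasi-likelihood test, TMM scaling, filterByExpr with a minimum count of 10, 1 mean per stage over all 12 libraries, 8 residual degrees of freedom). Adjusted p-values are Benjamini-Hochberg over the 18365 genes tested, called under 0.05. Standard errors were taken from the fold change and its F statistic. Levels (CPM) are counts scaled to the effective library size, and a spread is the SD of 3 libraries. Intervals on count ratios (95%) hold counting error alone. No pair of libraries of a stage was a duplicate by a chi-square test of their counts. Calls were tested on simulated counts. DESeq2 1.42.0, limma 3.58.1 and the other settings given under the processing part were alternatives, among them the log2 share outside genes as a covariate.

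The members and gene lists were chosen with earlier results of these data known. Named genes are up to 15 peaks and 12 troughs with the largest smaller step, no overlap and at least 5 CPM, up to 5 peaks or troughs per list, up to 4 others per direction with a called contrast, and up to 8 nearly specific or nearly absent genes. Axin2, Tnfrsf19, Kdr, Sox9, Col9a1, Csf1r, Hbb-y, Gosr2 and the list members given to show what did not pass were added after their values were seen.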

Additional observations from a re-analysis of the deposited data

How the results depend on the processing

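Beside 2026 higher, 2615 lower, 512 peak and 788 trough genes, the share outside genes as a covariate gave 408, 423, 123 and 155, and a test against a minimum change of 1.5-fold gave 272, 378, 104 and 132. Requiring no overlap and 1.5-fold steps in place of a test left 302 peaks. Leaving out each replicate in turn gave 1115 to 2628 higher, 1406 to 2801 lower, 350 to 645 peak and 478 to 926 trough genes. The losses beyond 1.5-fold came without replicate 1, 2 or 3 of E11.5 (troughs 478 without replicate 1 and 503 without replicate 2). Each of these fits held 1 library fewer, whichever stage lost it, and the reason for the losses was not tested. With the 9 libraries alone, DESeq2, its size factors, limma-voom, other filters or no globin and mitochondrial genes, all 4 counts stayed within 1.5-fold. Of 2235 alternative values for 118 named genes 3 reversed, all with the covariate: Krt5 (-0.24), Hand2os1 (1.67) and Hoxd1 (-1.36); the cause was not tested. With the covariate 58 other named genes no longer passed, nor did these 3, and 57 kept their call. Correlations of deviations were -0.045 to 0.177 for the 9 same-number pairs, 4 of them over 0.1, and -0.161 to 0.063 for the 18 others. Each library correlated best with its own number in the other stages except replicate 3 of E11.5 with E12.5 and the reverse. Libraries of the same number thus mostly deviated alike to a small degree, and the cause was not tested. The main fit held no term for the number, because not every same-number pair passed 0.1. With the replicate number as a block the counts were 2252, 2618, 544 and 825, and Gm8210 was the 1 named gene that no longer passed. Depth limits genes such as Ano5, Sox1 and Gm40383, which rest on few counts in a stage.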

Other observations

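Neighbouring tested genes sometimes shared a class. Peaks formed 43 runs of 2 or more adjacent tested genes and troughs 56, of which 9 and 10 held 3 or more; how many runs such class sizes would give without any link was not tested. The 1 run of 4 was Nbea, Mab21l1, Gm43376 and Gm42840 on chromosome 3 (55625195 to 56183701, mm10), where Mab21l1, a gene of eye and facial development, lies inside Nbea, so unstranded reads of the pair cannot be told apart. Other runs held Wnt5a with Gm2670 and Cacna2d3, Tbx2 with Bcas3 and 2610027K06Rik, and Emx2 with Emx2os and Rab11fip2. Among troughs, Mfng lay beside Rac2 and Cyth4, genes of blood cells, and Tlx2 beside Aup1 and Dqx1.

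The order of libraries within a stage was not even across peaks and troughs. E10.5 replicate 1 was the highest of its stage in 57.2% of peaks, beside 24.0% of all genes tested. E12.5 replicate 1 was the lowest of its stage in 49.4% of troughs, beside 35.3%. E11.5 replicates were in more even order over troughs, with replicate 2 the lowest in 39.8%.

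A homeodomain core, TAATTA, was in 2.78% of promoters of peaks and 2.49% of those of troughs, beside 2.76% of all promoters searched.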
